A study of Mus musculus with 6 samples.

Results

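The genes described here are the 6 that carry a C/EBP name (Cebpa, Cebpb, Cebpd, Cebpe, Cebpg and Cebpz) and Spi1, which encodes PU.1. They were chosen by symbol, and all 7 were found among the 15035 rows of the deposited table and passed the filter on low values. The study measured RNA in mouse leukemia cells derived from BALB/c bone marrow, in which mutant CSF3R (the G-CSF receptor) and mutant CEBPA were expressed from retroviruses. The groups were 3 libraries from cells given DMSO, the solvent, and 3 from cells given 4 nM GSK-LSD1, which blocks the histone demethylase LSD1, both for 48 h in serum-containing medium. Every library in both groups carried the 2 transgenes, so the comparison is of inhibitor against solvent on a mutant background and holds no sample without the mutations. The labels give neither the species nor the sequence of the viral CEBPA, and reads of it that align to the mouse gene would be counted as Cebpa. Nothing in them states if replicate libraries are separate cultures or mice, so the p-values measure the spread between these libraries, which may be technical.

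C/EBP proteins are basic leucine zipper factors that bind DNA as dimers, with themselves or with one another. C/EBPα opens the granulocyte programme in myeloid progenitors, C/EBPε acts later, during granule formation, and C/EBPβ and C/EBPδ are known from emergency granulopoiesis and inflammation. C/EBPγ lacks a strong activation domain and works largely through its dimer partners. Cebpz shares the name and not the fold: its product is a nucleolar protein of ribosome assembly. PU.1 is an ETS-domain factor that marks out myeloid enhancers together with C/EBPα, and its dose separates macrophage, granulocyte, mast cell and erythroid fates. LSD1 is recruited to many such enhancers by the repressors GFI1 and GFI1B. Read counts per gene do not separate the long and short protein forms that Cebpa and Cebpb messages yield.

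RefSeq promoter sequences on GRCm38.p6 were matched for 3 of the 7 genes. Each is shown over the 250 bases before the transcription start, 5′ to 3′ on the gene's strand, because these genes lie at unlike levels and hold different motifs. Capitals mark 3 motifs searched on both strands: TTGCGC (the start of the C/EBP palindrome TTGCGCAA), TGACG (the core of CREB and ATF sites) and CCAAT (the box after which the family was named). The windows are chr7:35119043-35119292, plus strand, for Cebpa, chr2:167688665-167688914, plus strand, for Cebpb, and chr7:35056567-35056816, minus strand, for Cebpg.
Cebpa: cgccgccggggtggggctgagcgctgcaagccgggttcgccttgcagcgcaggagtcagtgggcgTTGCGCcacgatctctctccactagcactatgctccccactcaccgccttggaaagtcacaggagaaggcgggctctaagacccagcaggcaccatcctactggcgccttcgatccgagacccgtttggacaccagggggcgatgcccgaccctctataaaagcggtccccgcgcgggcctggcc
Cebpb: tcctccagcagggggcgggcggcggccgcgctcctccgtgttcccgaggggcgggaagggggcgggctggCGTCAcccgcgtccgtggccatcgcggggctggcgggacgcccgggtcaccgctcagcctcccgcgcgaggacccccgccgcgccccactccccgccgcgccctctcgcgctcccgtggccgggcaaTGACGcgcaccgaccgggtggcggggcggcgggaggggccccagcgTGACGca
Cebpg: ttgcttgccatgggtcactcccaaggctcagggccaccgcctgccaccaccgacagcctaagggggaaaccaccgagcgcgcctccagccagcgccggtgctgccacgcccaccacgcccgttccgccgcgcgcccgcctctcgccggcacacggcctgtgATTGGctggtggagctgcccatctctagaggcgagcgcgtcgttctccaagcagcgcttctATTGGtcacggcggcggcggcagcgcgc
The Cebpa window held 1 TTGCGC, which 5.34% of all 32851 promoter windows of this length hold. The Cebpb window held 3 matches to TGACG (17.8% of all windows hold at least 1) and the Cebpg window 2 to CCAAT (33.8%). No window of the 3 held the fuller C/EBP form TTGCNNAA or AGGAAGT, a form of the PU.1 site. These are matches of letters and do not show binding.

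With GSK-LSD1, Cebpe, Cebpd and Spi1 rose, and Cebpa, Cebpb, Cebpg and Cebpz did not pass the test. The rises were moderate: 1.54-fold for Cebpe, 1.41-fold for Cebpd and 1.17-fold for Spi1. In all, 3 of the 7 rose and none fell by limma with Benjamini-Hochberg adjustment, and in the same 3 the groups did not overlap. Over all 11588 genes tested, 41.1% were called, 20.6% higher and 20.5% lower, and 49.5% had groups that did not overlap, 24.7% with GSK-LSD1 the higher. The share of the 7 that changed is thus close to that of all genes. Their median log2 fold change was 0.05, beside -0.01 over all genes tested. Values are read counts divided by a factor per library (scaled counts). Means carry the SD over 3 libraries, and fold changes on the log2 scale are of scaled count + 1.

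**Figure D1:**
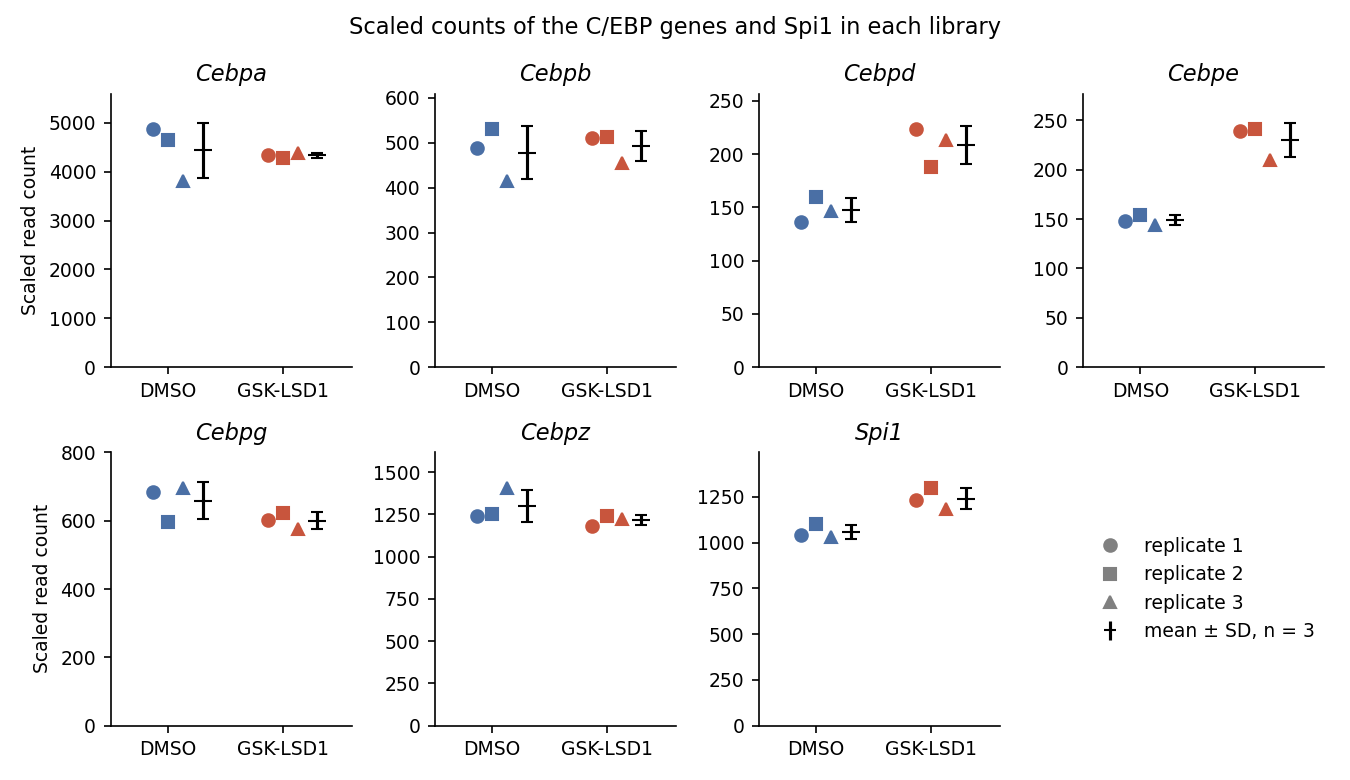
Scaled read count (vertical axes, from 0) of each gene in the 3 DMSO (blue) and 3 GSK-LSD1 (red) libraries, with marker shape for the replicate number and black bars for mean ± SD (n = 3). Every GSK-LSD1 library lies above every DMSO library for Cebpd, Cebpe and Spi1, and for Cebpa the DMSO libraries spread from 3802 to 4869 while the GSK-LSD1 libraries lie between 4279 and 4376.

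Cebpe, on chromosome 14 (54710360 to 54712174, minus strand, GRCm38), had the largest rise of the 7. Its scaled counts were 148, 155 and 144 in the DMSO libraries and 239.8, 241 and 210.2 in the GSK-LSD1 libraries. The groups did not overlap, and the lowest inhibitor library was above the highest solvent library. The means were 149 ± 5.15 and 230.4 ± 17.5, which is 0.62 ± 0.0988 (standard error) as a log2 fold change (limma, adjusted p = 3.48e-06). No annotated exon of another gene overlaps those of Cebpe. Of all genes tested, 91.9% had a lower log2 fold change.

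Cebpd, the C/EBP gene that responds early to cytokines, lies on chromosome 16 (15887286 to 15891031, plus strand). It stood at 137, 159.5 and 146 scaled counts with DMSO and at 223, 188 and 213 with GSK-LSD1. GSK-LSD1 replicate 2 was the lowest of its group and still above all DMSO libraries. The means were 148 ± 11.5 and 208 ± 18.0 (log2 fold change 0.49, standard error 0.104, adjusted p = 0.000199 by limma). Its exons share 562 bases with Spidr on the opposite strand, and the strand setting of the counting is not given. Spidr had means of 379 ± 26.1 and 387 ± 15.1 and did not pass (log2 fold change 0.03, adjusted p = 0.775 by limma).

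Spi1, on chromosome 2 (91082390 to 91115756, plus strand), had the smallest rise of the 3. The DMSO libraries held 1042, 1103 and 1029 scaled counts and the GSK-LSD1 libraries 1233, 1300.1 and 1185. The lowest inhibitor library was above the highest solvent library, so the groups are separate. The means were 1058 ± 39.3 and 1239.6 ± 57.6, a log2 fold change of 0.23 with a 95% interval of 0.12 to 0.34 (adjusted p = 0.000732 by limma). Exons of Spi1 overlap no other annotated gene.

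Cebpa, on chromosome 7 (35119293 to 35121928, plus strand), was the most abundant of the 7 and did not pass. Its exons share 51 bases with Gm45091 on the opposite strand. The scaled counts of Cebpa were 4869, 4641 and 3802 with DMSO and 4341, 4279 and 4376 with GSK-LSD1. The inhibitor libraries all lie within the range of the solvent libraries, whose SD of 562 compares with 49.0 in the inhibitor group. The log2 fold change was -0.03 with a 95% interval of -0.14 to 0.09 (adjusted p = 0.734 by limma), so that changes within 0.907-fold to 1.06-fold are inside the interval. Without DMSO replicate 3 the value was -0.13 and passed (adjusted p = 0.0086 by limma), over a range of 0.0086 to 0.935 across all alternatives tried.

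DMSO replicate 3 also held the lowest Cebpb and the highest Cebpg and Cebpz values of its group, and these genes differ in base composition. The longest coding transcript has 62.6% G and C for Cebpa and 67.2% for Cebpb, beside 43.3% for Cebpg and 43.4% for Cebpz. Over the 477 tested genes with at least 60% GC, the median deviation of DMSO replicate 3 from its group mean was -0.08 on the log2 scale, and that of DMSO replicate 2 was 0.06. Below 45% GC (2505 genes) the medians were 0.04 and -0.05. Cebpa deviated by -0.21 in DMSO replicate 3, more than the median of GC-rich genes, and Cebpb by -0.20. Cebpe, at 61.5% GC, deviated by -0.05 there, and Spi1, at 58.9%, by -0.04. The part of base composition in the spread of Cebpa was not tested. With each library's trend along GC content removed, an alternative chosen after seeing the data, the Cebpa values were 4765, 4373 and 3969 with DMSO and 4342, 4393 and 4403 with GSK-LSD1, and the SD of the DMSO group was 398. The log2 fold change was then 0.0074 (adjusted p = 0.913 by limma), and Cebpe (0.65), Cebpd (0.52) and Spi1 (0.26) still rose.

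Cebpb (chromosome 2, 167688915 to 167690418, plus strand), the inflammatory C/EBP gene, had scaled counts of 489, 530.1 and 415 with DMSO and 511, 512 and 455 with GSK-LSD1. The groups overlap almost wholly. The log2 fold change was 0.05, with a 95% interval from -0.11 to 0.20 (adjusted p = 0.645 by limma). Its exons share 312 bases with Tmem189 on the opposite strand, which stood at 714 ± 16.96 and 762 ± 13.1 and did not pass either.

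Cebpg, the dimer partner, lies 62.7 kb from Cebpa on the same chromosome (35046422 to 35056573, minus strand). Its counts were 685, 597 and 697 with DMSO and 603, 623 and 575 with GSK-LSD1, so that DMSO replicate 2 lay inside the range of the inhibitor group. Cebpg exons share 73 bases with Gm44836 on the same strand and 4 with Gm45095 on the opposite strand. The log2 fold change of Cebpg was -0.13 with a 95% interval of -0.26 to 0.00051 (unadjusted p = 0.0508, adjusted p = 0.105 by limma). It passed as a fall without DMSO replicate 2 (-0.20, adjusted p = 0.019 by limma) and with the GC trend removed (-0.15, adjusted p = 0.0397 by limma), and its adjusted p ranged from 0.019 to 0.318 over all alternatives tried. Cebpz (chromosome 17, 78919006 to 78937066, minus strand), the gene for the nucleolar protein, had counts of 1240.3, 1252 and 1408 with DMSO and 1181, 1242 and 1222 with GSK-LSD1, so that GSK-LSD1 replicate 2 was just above DMSO replicate 1 and the groups overlap. Its log2 fold change was -0.09 with a 95% interval of -0.20 to 0.01 (adjusted p = 0.163 by limma).

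**Figure D2:**
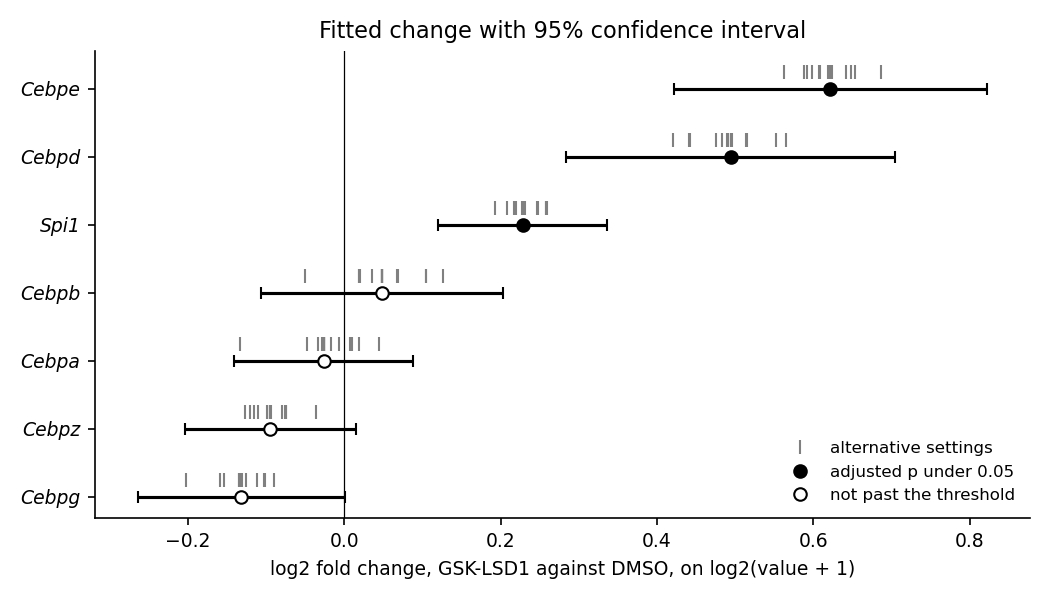
Fitted log2 fold change (horizontal axis, GSK-LSD1 against DMSO on log2 of scaled count + 1) of the 7 genes with 95% confidence intervals, filled circles for genes past the threshold, and grey ticks for the values under the alternative settings. The ticks of Cebpe, Cebpd and Spi1 all lie above 0, from 0.56 to 0.69, from 0.42 to 0.56 and from 0.19 to 0.26, while those of Cebpa and Cebpb fall on both sides of 0.

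Divided by merged exon length, the levels of the 7 genes spanned a wide range. In scaled counts per kb of exon with DMSO, Cebpa stood at 1683 ± 213, above 98.1% of the tested genes with an annotated length. Any reads of the viral CEBPA that align to the mouse gene are part of this value. Spi1 followed at 393 ± 14.6, Cebpb at 318 ± 38.8 and Cebpz at 279 ± 20.1. Cebpe (120.2 ± 4.15), Cebpg (117 ± 9.73) and Cebpd (39.4 ± 3.06) were the lowest. The libraries of Cebpb and Cebpz overlapped on this scale, as did those of Cebpe and Cebpg, and at each other step of the order the libraries did not overlap. With GSK-LSD1 Cebpe was at 186 ± 14.1 and Cebpg at 107 ± 4.28, no longer overlapping, and the order of the 7 was the same. The order depends on the length used: by the longest coding transcript Cebpg (140.0) stood above Cebpe (120.2) with DMSO, and Cebpz (319) just above Cebpb (318).

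**Figure D3:**
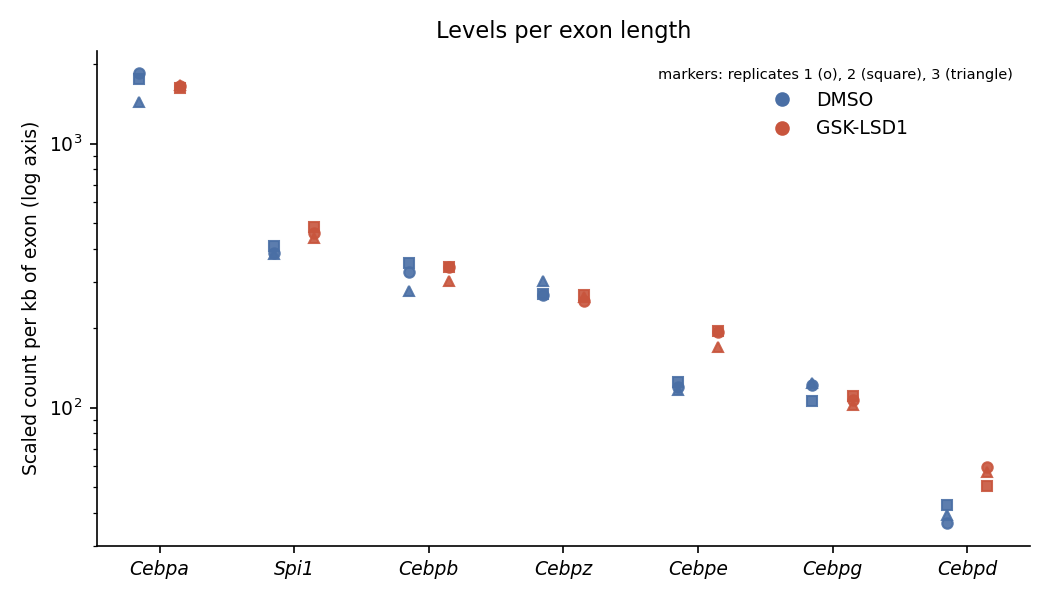
Scaled count per kb of merged exons (log axis) of each gene in each library, ordered by the DMSO mean, with DMSO in blue, GSK-LSD1 in red and marker shape for the replicate. Cebpa lies highest, between 1442 and 1847 with DMSO, and Cebpd lowest, between 36.5 and 42.6.

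A ratio of genes within 1 library does not depend on that library's scaling factor, so the other 5 factors were also set against Cebpa. Cebpe amounted to 3.05%, 3.33% and 3.80% of the Cebpa count in the DMSO libraries and to 5.52%, 5.64% and 4.80% in the GSK-LSD1 libraries. The inhibitor libraries were all higher, and the log2 ratio differed by 0.65. Cebpd moved from 3.36% ± 0.524 to 4.81% ± 0.376 (difference 0.52) and Spi1 from 24.1% ± 2.85 to 28.6% ± 1.66 (difference 0.25), again without overlap. For Spi1 the gap was narrow, since DMSO replicate 3, where Cebpa was low, reached 27.08% beside 27.09% in GSK-LSD1 replicate 3. For each of these 3 ratios the exact two-sided permutation p was 0.10, the smallest that 3 against 3 libraries allow, and 0.167 after Benjamini-Hochberg adjustment over the 5 ratios. The ratios of Cebpb (10.8% ± 0.695 and 11.4% ± 0.864) and Cebpg (15.1% ± 2.88 and 13.9% ± 0.709) overlapped between groups, with exact permutation p of 0.50 and 0.80. These are ratios of counts and not of molecules, since the genes differ in length. The Cebpa count would also hold reads of the viral CEBPA that align to it, so the ratios need not describe the mouse gene alone.

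**Figure D4:**
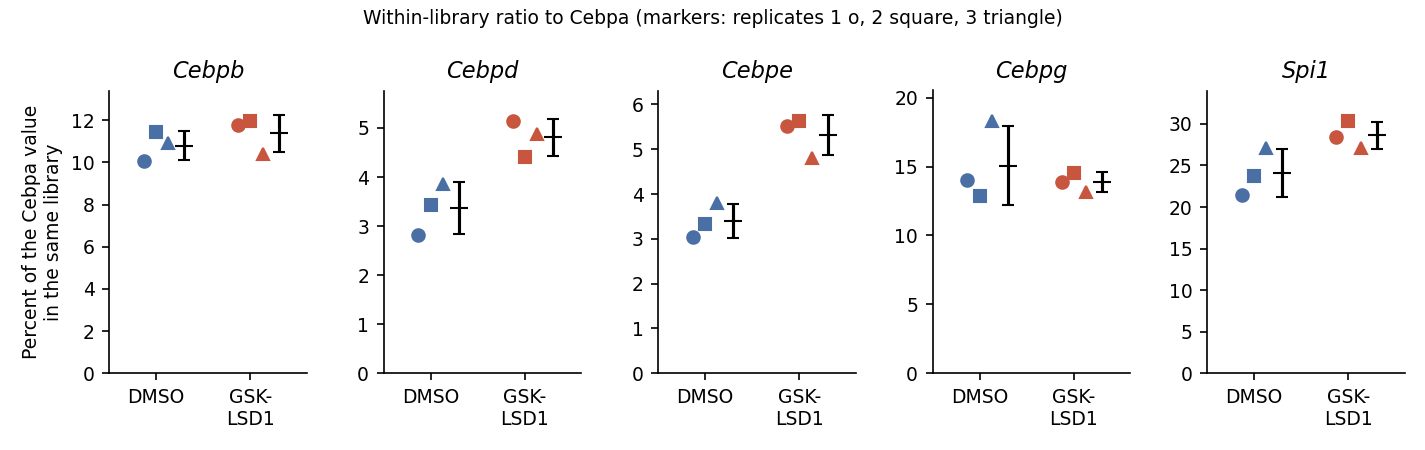
Count of 5 factors as a percent of the Cebpa count in the same library (vertical axes, from 0), with marker shape for the replicate number and black bars for mean ± SD (n = 3). The red GSK-LSD1 points of Cebpd, Cebpe and Spi1 lie above the blue DMSO points, by the least for Spi1, where 27.09% is next to 27.08%.

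By root mean square difference of the 6 libraries' log2 values from the gene's DMSO mean, over 9475 candidate genes, the profiles most like Cebpe were those of Ppard (0.0461), Fam134b (0.053) and Filip1l (0.0535). Ppard, a nuclear receptor gene, rose from 516 ± 16.8 to 808 ± 30.02 scaled counts. For Cebpd the closest were Gspt2 (0.0473), Tax1bp3 (0.0496) and Mpnd (0.0532), and for Spi1 they were Fgd1 (0.0106), Aspm (0.0207) and Arhgap18 (0.0219). Fgd1 did not itself pass the test (adjusted p = 0.0941 by limma). The measure draws on the same 6 libraries and mostly reflects a change of like size. The nearest genes of the table beside or across the 7 loci, other than the 7 themselves, numbered 15, of which 12 were tested: none rose, 2 fell and 10 did not pass. Over all genes tested, 20.6% rose and 20.5% fell. Beside Cebpe, the amino acid transporter gene Slc7a8, 10.035 kb away, was at 5556 ± 244 and 5524 ± 163 scaled counts. Beside Spi1, Slc39a13 had a log2 fold change of 0.10 (adjusted p = 0.577 by limma) and Mybpc3, low at 6.58 ± 1.07 and 12.5 ± 0.908 scaled counts, 0.84 (adjusted p = 0.0683), which passed as a rise without the variance trend (0.00296). Mybpc3 was below 10 in every DMSO library, so only a rise could be called. Beside Cebpd, Mzt2 had a log2 fold change of -0.24 (adjusted p = 0.0801 by limma) and passed as a fall with quantile scaling (0.022), with sample weights (0.0433) and without DMSO replicate 3 (0.014). The 2 that fell were Pkp2, 322 kb from Cebpd (log2 fold change -0.44, adjusted p = 0.0166 by limma, lost without GSK-LSD1 replicate 2 at 0.0807), and Cebpzos, which overlaps Cebpz on the opposite strand (-0.23, adjusted p = 0.0422, not past the threshold when any 1 library was left out, with 0.0531 to 0.168).

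Relatives and partners of these factors changed in both directions: of 21 tested, 8 rose, 4 fell and 9 did not pass, with a median log2 fold change of 0.07. Gfi1, the LSD1-recruiting repressor gene that C/EBP factors and PU.1 act with and against, rose from 65.5 ± 5.42 to 553 ± 13.4 scaled counts (log2 fold change 3.06). Fos (1.42), Irf8 (1.23) and Jun (0.90) rose; their products join C/EBP or PU.1 proteins on DNA. Trib1 and Trib2, which encode adaptors for the breakdown of C/EBPα protein, rose from 62.6 ± 5.46 to 104 ± 10.9 and from 276 ± 24.3 to 417 ± 17.3 (adjusted p = 0.000107 and 1.47e-07 by limma). Gata2 (0.15) and Cbfb (0.15) rose by little, and the call of Cbfb was lost without DMSO replicate 2 (adjusted p = 0.0688 by limma) or GSK-LSD1 replicate 3 (0.0697). Without the variance trend neither passed (adjusted p = 0.0547 for Gata2 and 0.0891 for Cbfb by limma). Junb (-0.36), Gata1 (-0.28), Myb (-0.22) and the C/EBP dimer partner Atf4 (-0.19) fell. GATA1 and PU.1 are known to inhibit each other, and Gata1 went from 665 ± 28.7 to 547 ± 14.4. Ddit3, which encodes the C/EBP relative CHOP, was at 79.3 ± 3.68 and 85.7 ± 7.09 (adjusted p = 0.564 by limma) and Runx1 at 2831 ± 134 and 2812 ± 39.6. The PU.1 relative Spib did not exceed 1.95 scaled counts in any library and was not tested. Exons of Jun, Junb, Runx1, Myb and Gfi1 share bases with genes annotated on the opposite strand, which leaves their counts uncertain.

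Of 20 tested granule and maturation genes known as C/EBP targets, 14 rose, 5 fell and 1 did not pass, with a median log2 fold change of 1.13. The largest rises were those of the formyl peptide receptor gene Fpr1 (from 2.30 ± 0.545 to 31.9 ± 0.275 scaled counts), Mmp9, the gelatinase gene (9.22 ± 1.56 to 74.0 ± 0.848), Mmp8, the collagenase gene (2376 ± 61.2 to 15579 ± 296), and the chemokine receptor gene Cxcr2 (53.9 ± 14.1 to 251 ± 12.4). Fpr1 was below 10 in every DMSO library, so only a rise could be called. Csf3r, a C/EBP target and also a transgene here, rose from 106 ± 12.8 to 434 ± 14.6, with reads of the viral and the mouse gene not separated. Ngp fell by 1.25 on the log2 scale, Elane by 0.92, Prtn3 by 0.67 and Ctsg by 0.47, the last 3 being proteases of primary granules; exons of Prtn3 overlap a gene on the other strand. Mpo, the myeloperoxidase gene of the same granules, was more abundant and rose from 7390.3 ± 377 to 8952 ± 164 (log2 fold change 0.28, adjusted p = 3.33e-06 by limma). Its exons share 512 bases with Gm11505 on the opposite strand. Ltf, a classical C/EBPε target of secondary granules, did not exceed 6.94 scaled counts in any library and was not tested, and Camp has no row in the table.

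Of 10 tested inflammatory genes known as targets of C/EBPβ and C/EBPδ, 8 rose and 2 fell (median log2 fold change 0.89). The acute phase genes Saa3 (33.9 ± 4.67 to 130 ± 1.51 scaled counts) and Hp (169 ± 16.2 to 388 ± 23.7) rose, as did Il6 (759 ± 85.5 to 1342 ± 18.6), the Toll-like receptor gene Tlr2 (36.9 ± 6.33 to 81.5 ± 8.68) and the chemokine gene Ccl3 (4.28 ± 1.54 to 16.1 ± 1.66). Il10 fell from 93.5 ± 10.3 to 28.4 ± 8.55 and Ptgs2, the cyclooxygenase gene, from 18.5 ± 5.78 to 7.34 ± 2.88. Ccl3 and the chemokine gene Cxcl2, which also rose, were below 10 in every DMSO library, so only a rise could be called. Ptgs2 was below 10 in every GSK-LSD1 library, so only a fall could be called. At a mean of at least 50 scaled counts, 5 rose and 1 fell.

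Of 33 tested myeloid genes known as PU.1 targets, 27 rose, 1 fell and 5 did not pass, with a median log2 fold change of 0.65. With 1 library left out, 22 to 26 rose. Slc11a1, a metal transporter gene of phagosomes, rose from 6.26 ± 0.592 to 62.2 ± 1.68 scaled counts, Adgre1, which encodes F4/80, from 17.4 ± 2.83 to 158 ± 4.40, Nlrp3 from 7.90 ± 0.928 to 59.7 ± 9.30 and the cathepsin gene Ctss from 47.4 ± 7.39 to 326 ± 38.9. Csf1r, the macrophage growth factor receptor gene, named after its values were seen, rose from 11.8 ± 4.17 to 44.97 ± 12.2, with part of its exons shared with Hmgxb3 on the other strand. Slc11a1, Nlrp3 and Cd180, which also rose, were below 10 in every DMSO library, so only a rise could be called. Btk fell, with a log2 fold change of -0.18, and its call was lost without the variance trend (adjusted p = 0.0644 by limma). The number that fell was 0 without that trend and 2 with quantile scaling or sample weights, or without DMSO replicate 2. Beside the counts of the 4 lists, 20.6% of all genes tested were called higher and 20.5% lower. The lists share 4 genes with each other and were drawn up with earlier results of these data known, so their direction is no independent evidence. A gene can also have many regulators besides the factor that named its list.

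**Figure D5:**
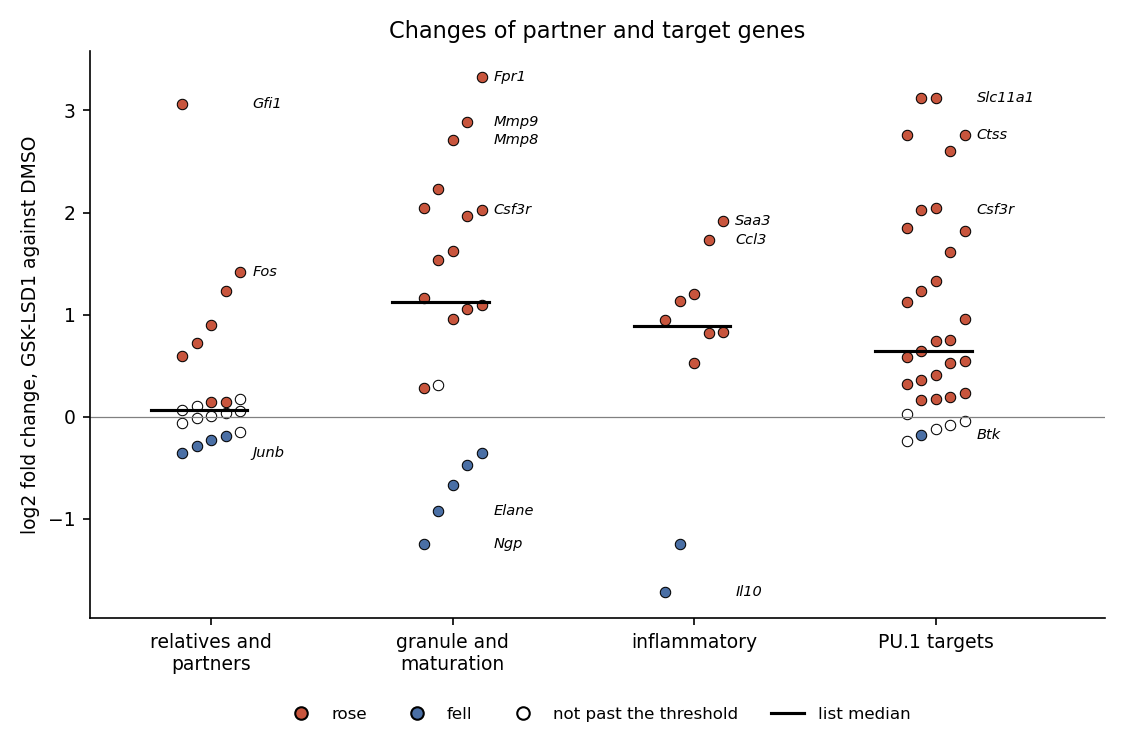
Log2 fold change (vertical axis, GSK-LSD1 against DMSO) of each tested gene in 4 lists, red for genes that rose, blue for genes that fell, white for genes not past the threshold, and a bar at the list median. The medians are 0.07 for relatives and partners, 1.13 for granule and maturation genes, 0.89 for inflammatory genes and 0.65 for PU.1 targets, beside -0.01 for all genes tested.

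The C/EBP form TTGCNNAA stood in promoters of both C/EBP target lists: in 6 of 25 windows (24.0%) of the granule list and 4 of 14 (28.6%) of the inflammatory list, beside 9.56% of all windows. The PU.1 form AGGAAGT stood in 13 of 25 windows (52.0%) of the granule list and 1 of 14 (7.14%) of the inflammatory list. In the PU.1 target list it stood in 4 of 38 windows (10.5%), beside 7.69% of all windows. Those 38 windows belong to 28 genes, and 3 of the 38 (7.89%) held TTGCNNAA. Both motifs were searched on both strands over 250 bases, and no test was made. The 7 tested genes of the C/EBP lists with a TTGCNNAA match are shown as 40-base stretches around a match, with that match, on either strand, in capitals (Ngp holds a second one, not shown), because 5 of them rose and 2 fell. They are Il6 (chr5:30012970-30013009, plus strand), Lcn2 (chr2:32387932-32387971, minus strand), Mmp8 (chr9:7558389-7558428, plus strand), Ngp (chr9:110419768-110419807, plus strand), Ptgs2 (chr1:150099946-150099985, plus strand), S100a9 (chr3:90695932-90695971, minus strand) and Saa3 (chr7:46715752-46715791, minus strand), all on GRCm38.p6.
Il6: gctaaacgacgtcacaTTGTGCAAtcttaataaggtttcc
Lcn2: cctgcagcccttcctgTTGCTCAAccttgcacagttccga
Mmp8: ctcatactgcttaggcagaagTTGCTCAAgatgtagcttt
S100a9: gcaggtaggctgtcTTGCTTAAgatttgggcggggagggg
Saa3: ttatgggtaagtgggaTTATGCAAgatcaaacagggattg
Ngp: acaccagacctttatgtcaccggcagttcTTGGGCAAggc
Ptgs2: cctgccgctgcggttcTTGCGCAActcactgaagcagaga
The first 5 belong to genes that rose: Lcn2 (log2 fold change 1.16) and S100a9 (1.53) besides Mmp8, Il6 and Saa3. The last 2, Ngp and Ptgs2, belong to genes that fell, so a match went with either direction. The windows follow RefSeq starts. By GENCODE positions the Lcn2 and Ngp stretches lie within the gene, past its annotated start.

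Depth was even, from 9572638 to 10199533 reads per library if each library's smallest value stands for 1 read. Kdm1a, which encodes LSD1, was 1257 ± 59.6 and 1227 ± 16.3 scaled counts and did not pass (adjusted p = 0.631 by limma), and an inhibitor of the enzyme need not alter its message. The labelled cells carried myeloid messages such as Prtn3. Of 10 myeloid progenitor markers, 9 were tested, 4 rose and 4 fell, with a sum of 12448 to 13305 with DMSO and 15658 to 16242 with GSK-LSD1. The cells also carried mast cell and basophil markers, of which all 10 listed were tested, 4 rose and 2 fell. Cpa3 (14319.6 ± 982 and 23028 ± 597 scaled counts) rose, Fcer1a (5758 ± 149 and 4518 ± 265) and Hdc (673 ± 25.7 and 302 ± 13.03) fell, and Cma1 (3817 ± 112 and 3903 ± 39.2) did not pass. Kit, which is not on that list, stood at 29.6 ± 4.82 and 28.1 ± 13.4. The summed value of the mast cell and basophil list was 33100.2 to 35382 with DMSO and 41541 to 43018 with GSK-LSD1. The rise of Cpa3 was about as large as that of the sum, so the sum does not show a rise of the list as a whole. Of 10 monocyte and macrophage markers, 8 had a row, 5 were tested and 4 rose, with a sum of 403 to 461 with DMSO and 863 to 926 with GSK-LSD1; Mrc1 (1.65 and 2.01) was near 0 and C1qa and C1qb had no row. The 6 erythroid markers with a row all fell, from a sum of 259.8 to 328 to one of 44.8 to 66.2. Of 9 megakaryocyte markers 7 had a row, 4 were tested, 1 rose and 2 fell. Their sum was 1937 to 2069 with DMSO and 1733 to 1802 with GSK-LSD1. Of 9 stromal markers 3 had a row and all 3 rose (3782 to 4256 and 4674 to 4776), while Col1a2, Col3a1, Dcn, Lum, Cxcl12 and Cdh5 had no row. B cell markers summed to at most 10.4. Of 10 T and NK cell markers 5 had a row, 3 were tested and 2 fell, with a sum of 326 to 357 with DMSO and 240.4 to 281 with GSK-LSD1, while Cd3e, Cd4 and Cd8a had no row. In bulk RNA, more cells of a type and more RNA per cell cannot be told apart, and the part of cell composition in the changes of the C/EBP genes, Spi1 and the target lists was not tested.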

How the data were processed

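RNA-seq of 6 libraries (3 DMSO, 3 GSK-LSD1) was analysed from the authors' deposited table, whose values are a normalised signal: from the values, gene read counts divided by 1 factor per library, since all values were whole multiples of the library's smallest within 0.01. The submitters' processing notes list STAR, DESeq2, mm10 and GRCm38 with no role. Counter, annotation and strand: not given in the sources used here. In DMSO replicates 2 and 3 the smallest values (0.991 and 0.995) were too near 1 for the check used to recover reads, so no count model was used. Genes with a value of at least 10 in at least 3 libraries were kept (11588 of 15035). A gene that reached this value in 1 group alone could be called in only 1 direction. log2(value + 1) was tested in limma 3.58.1 under R 4.3.3, variance trend included, two-sided, Benjamini-Hochberg adjusted over all genes tested, threshold 0.05; it was tested on simulated data. Within-library ratios used exact permutation tests. Exon lengths, positions and overlaps came from GENCODE M21 (GRCm38), which matched 14409 symbols once, and promoters from RefSeq (GRCm38.p6). GC content was known for 92.4% of tested genes. The genes, lists and naming rule (up to 4 genes per list and direction by size of change, the 3 most similar profiles, the nearest genes) were chosen with earlier results of these data known. Lcn2, S100a9 and Il6 were named for their promoter match. Some genes the rule selects are not printed. Alternatives were pseudocounts, filters, scalings, variance models, a replicate block and leaving out each library.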

Additional observations from a re-analysis of the deposited data

How the results depend on the processing

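The rises of Cebpd, Cebpe and Spi1 passed in all 16 alternatives, with log2 fold changes of 0.42 to 0.56, 0.56 to 0.69 and 0.19 to 0.26 and adjusted p-values by limma of 0.000108 to 0.009, 1.6e-06 to 0.00173 and 8.17e-05 to 0.03. Cebpa turned to 0.0189 with quantile scaling and 0.0074 with the GC trend removed, and lay between -0.1341 and 0.0443 with 1 library left out; DMSO replicate 3 decided its only call. Cebpb lay between -0.05 and 0.1261 with 1 library left out. Cebpg lay between -0.2025 and -0.0906, and was -0.1535 and past the threshold with the GC trend removed. Its ratio to Cebpa differed by -0.2123 to 0.0436 with 1 library left out. The cause of these shifts was not tested. Among genes named besides, none of them called, Ddit3 turned to -0.0774, Runx1 to 0.0229, Slc39a13 to -0.0484 and Slc7a8 to 0.0493 with quantile scaling, Runx1 to 0.0112 and Slc7a8 to 0.0118 with equal library totals, and Slc7a8 to 0.0188 with the GC trend removed; with 1 library left out Runx1 lay between -0.0412 and 0.0269, Slc7a8 between -0.0437 and 0.0177 and Spidr between -0.0012 and 0.0862. The partner list median was 0.0542 to 0.1497 with 1 library left out. The granule list median was 0.958 without the filter and 1.0336 to 1.184 with 1 library left out. In the inflammatory list 5 rose and 1 fell at a mean of at least 50, the median was 0.7138 with quantile scaling, and with 1 library left out 6 to 8 rose, 1 to 2 fell and the median was 0.7475 to 1.0962. The PU.1 target median was 0.6188 with a pseudocount of 5, 0.7455 without the filter, 0.5338 at a mean of at least 50, 0.6028 with quantile scaling, 0.6683 with equal totals and 0.5633 to 0.684 with 1 library left out, where 1 to 2 fell; 2 fell with quantile scaling or sample weights and 0 without the variance trend. With 1 library left out, 22 to 26 PU.1 targets rose, beside 27 with all libraries. All genes called numbered 3889 to 4615 with 1 library left out, beside 4762. Same-numbered libraries of the groups did not deviate together (correlations of 0.04, -0.03 and 0.02). With so few libraries this cannot exclude a pairing by number, and the labels state none. With the replicate block 4661 genes were called, and no call of the 7 genes changed (Cebpe adjusted p = 1.77e-05, Spi1 0.00114 by limma). Genes with few counts such as Spib and Ltf could not be compared at this depth.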
